A study of Xenopus laevis with 4 samples.

Results

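The vesicle traffic and endocytosis genes were taken as the probe sets whose single gene symbol begins with a name of the Rab, Arf, Arl, Sec, COPI (copa, copb, copg, copz, cope), Vps, sorting nexin, syntaxin, VAMP, adaptor (AP-1, AP-2, AP-3), clathrin, LAMP or TMED families. They were 219 of 15491 probe sets that are not controls, and they stand for 166 genes, of which 89 are L copies, 75 are S copies and 2 carry no suffix (L and S are the long and short chromosome sets of this allotetraploid frog). They were followed in 4 explants of the Xenopus laevis embryo at stage 10, the onset of gastrulation. These were the animal cap (prospective ectoderm), the dorsal and ventral marginal zones (opposite sides of the equator, where mesoderm forms), and the vegetal explant (large yolky cells of the vegetal pole). The labels give no genotype, strain or treatment and do not say how many embryos were pooled. Each explant was measured on 1 array, so every difference below is a difference between single arrays with no replicate check, no test and no p-value.

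Proteins and membranes move between compartments in carriers. Coat complexes (COPII from the endoplasmic reticulum, COPI at the Golgi, clathrin with its adaptors at the Golgi and the cell surface) bend the membrane and collect cargo. Small GTPases of the Rab and Arf families mark each compartment and recruit coats and tethers, SNAREs fuse the carrier with its target, and sorting nexins, retromer and the ESCRT complexes decide whether internalised cargo is recycled or degraded. In the gastrula the same machinery secretes and clears signalling ligands and remodels the surface of moving cells, and the vegetal cells also hold most of the maternal yolk platelets.

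Signals are linear intensities scaled by the authors, read here against a floor of 24.7 (the 20th percentile of the deposited values) and log2 transformed. To be compared, a probe set had to reach 147.1, the overall median signal, in its brighter explant, and 2-fold was the rule of size. In at least 1 explant 177 of the 219 traffic probe sets (136 genes) reached that level, a share of 80.8% against 57.1% of all probe sets. The other 42 stayed below it everywhere, 5 of them at the floor on all 4 arrays. Among those that entered, the median over probe sets of the mean log2 signal was 8.88 for the traffic probe sets and 8.86 for all. Array medians were 139 in the animal cap, 148 in both marginal zones and 160 in the vegetal explant. Regional markers followed the labels: all 7 probe sets for the ectodermal markers krt12.4, grhl3, foxi4.2 and dlx3 were highest in the cap, and all 7 for sox17a, sox17b.1, mixer and gata6 were highest in the vegetal explant. The 3 germ plasm probe sets (dazl, pgat, ddx25) were highest in the vegetal explant, the 3 for tbxt and aplnr in a marginal zone, and all 6 dorsal and all 6 ventral marker probe sets lay on their own side. In an explant, fewer cells of a type and less RNA per cell cannot be told apart.

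Most traffic genes stayed within 2-fold across the 4 explants. Of 173 traffic probe sets compared between the animal and vegetal poles, 6 were 2-fold or more higher in the cap and 14 in the vegetal explant. These are 3.47% and 8.09% of the traffic probe sets compared, 11.6% together. Of all 8614 probe sets compared, 9.14% passed the rule in the cap and 11.7% in the vegetal explant, 20.9% together. Among only the 5800 of them with 1 gene symbol, as every traffic probe set has, 18.3% were 2-fold apart. With each array centred on its own median, 11 traffic probe sets were past the rule in the cap and 8 in the vegetal explant. All probe sets turned the same way, with more in the cap than in the vegetal explant under this centring. Both poles together held 11% of the traffic probe sets and 21.6% of all. Which pole had more on its side thus depended on the scaling, for the whole array as for the traffic probe sets. The median absolute difference was 0.33 for the traffic probe sets and 0.45 for all, and the medians of the signed difference were -0.04 and -0.01. Without the filter, 25 of all 219 traffic probe sets (11.4%) were 2-fold apart, against 17.7% of all probe sets. Between the dorsal and ventral marginal zones 0 of 165 traffic probe sets were 2-fold apart, where 2.56% of all 8094 were (1.38% dorsally, 1.17% ventrally). Their median absolute difference in that comparison, 0.15, was close to the 0.17 of all probe sets.

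The share past 2-fold was larger among dim probe sets than among bright ones. Probe sets were split by mean signal into 3 classes of equal size, and in each the traffic share lay below the share of all. In the dimmest class 11 of 50 traffic probe sets (22%) were 2-fold apart between cap and vegetal explant, against 33.5% of all. In the middle class it was 7 of 71 (9.86%), against 18.9%, and in the brightest class 2 of 52 (3.85%), against 11.2%.

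**Figure D1:**
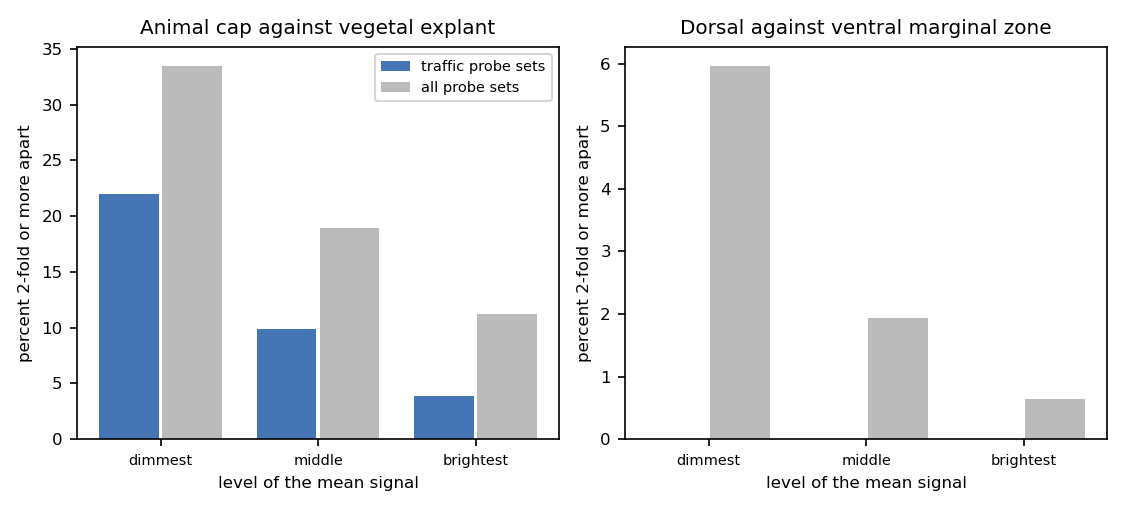
Percent of probe sets 2-fold or more apart (vertical axis from 0; the panels differ in scale) in 3 classes of mean signal, for the traffic probe sets (blue, left bars) and all probe sets (grey, right bars). Left, animal cap against vegetal explant: 22%, 9.86% and 3.85% of traffic probe sets against 33.5%, 18.9% and 11.2% of all. Right, dorsal against ventral marginal zone: no traffic probe set in any class, against 5.97%, 1.93% and 0.644% of all. The filter on the brighter explant favours uneven probe sets in the dimmest class.

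The vegetal explant was the one that stood apart for the traffic genes, as for the array as a whole. It held the highest or the lowest of the 4 signals in 72.3% of the 177 traffic probe sets and in 76.4% of all. Of the traffic probe sets, 5 were 2-fold or more above all other explants in the vegetal explant (2.82%, against 6.01% of all) and 3 were 2-fold or more below all others there (1.69%, against 5.34%). In the animal cap, the dorsal and the ventral marginal zone, 0 traffic probe sets stood 2-fold above the other 3, where the shares of all probe sets were 0.723%, 0.316% and 0.181%. No traffic probe set lay 2-fold below the other 3 in the animal cap (2.17% of all), the dorsal (0.192%) or the ventral marginal zone (0.102%). None lay 2-fold above both poles in both marginal zones (0.384% of all) or below both (0.0226%). With any pair of explants counted, 27 of 177 traffic probe sets (15.3%) were 2-fold apart, against 27.4% of all and 24.3% of those with 1 gene symbol. In 19 of the 20 probe sets that separated cap and vegetal explant, the mean of the marginal zones lay nearer the cap than the vegetal explant, as it did in 1477 of the 1798 such probe sets of the whole array (82.1%). Both marginal zones lay between the poles in 12 of the 20, against 1206 of the 1798 (67.1%). None of the 20 had an explant at the floor, but in 9 of them, 8 with the higher signal in the vegetal explant, the lower pole lay under the filter, so that these entered only through the explant where they were high. Over the whole array this held for 957 of the 1798 (53.2%).

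**Figure D2:**
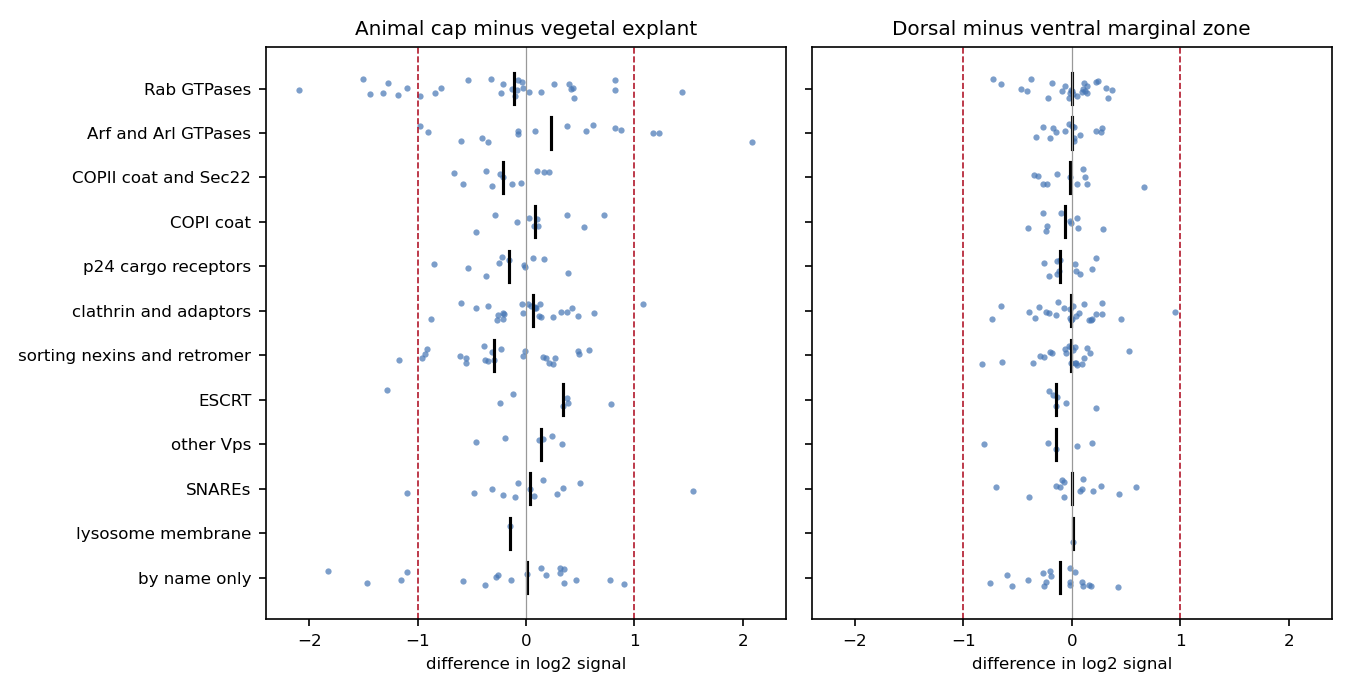
Difference in log2 signal of each traffic probe set, by role group: animal cap minus vegetal explant on the left (173 probe sets), dorsal minus ventral marginal zone on the right (165 probe sets). Dots are probe sets, black ticks the median of a group and dashed lines 2-fold; 20 dots lie at or beyond the lines on the left and none on the right.

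The Rab GTPases are the switches that give each membrane its identity. Of 30 Rab probe sets compared, 7 were past 2-fold in the vegetal explant and 1 in the cap (median -0.12 on the log2 scale), where the shares of all probe sets were 11.7% and 9.14%. In 5 of the 7 (both of rab40b.L, the dimmer of rab8a.S, rab9a.S and rab27a.L) the cap lay under the filter, so that they entered only through the vegetal explant. The clearest was rab40b.L, a Rab with a SOCS box that recruits a ubiquitin ligase. Its brighter probe set read 111 in the animal cap, 226 dorsally, 204 ventrally and 474 in the vegetal explant, 4.26-fold higher vegetally than in the cap. A second probe set of the same gene read 62.7, 96.4, 69.3 and 169 in that order, 2.7-fold higher vegetally. On both, the cap was lowest and the vegetal explant highest.

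Rab8a.S, whose product carries cargo from the trans-Golgi network to the cell surface and the cilium, also agreed on both of its probe sets. One had 539 in the cap, 749 dorsally, 726 ventrally and 1343 vegetally (2.49-fold higher vegetally than in the cap), and the other 104, 123, 143 and 236 (2.27-fold). Both place the marginal zones between the poles. Single probe sets gave the remaining Rab differences. The late endosome gene rab9a.S had 61.7 in the cap, 91.9 dorsally, 87.5 ventrally and 174 vegetally (2.82-fold higher vegetally). Rab27a.L, which serves the release of secretory granules and lysosome-related organelles, had 108, 99.8, 166 and 261 (2.41-fold), with the ventral marginal zone above the dorsal. Rab21.L, an early endosome Rab that binds integrins, had 214, 206, 241 and 460 (2.15-fold), with cap and marginal zones alike. Rab3a.L, known from regulated exocytosis at synapses, lay just short of 2-fold between the poles, with 153 in the cap and 302 vegetally, and was lowest dorsally at 101.

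Only rab2b.S, a Golgi Rab, ran the other way past 2-fold among the Rabs. Its signal was 634 in the cap, 647 dorsally and 589 ventrally, against 234 in the vegetal explant, so the cap was 2.71-fold higher and the vegetal explant was low alone. The recycling endosome gene rab11a.S had a like order with a smaller cap difference: 160, 201 and 185 in the cap, dorsal and ventral marginal zones, against 91.0 vegetally (1.76-fold higher in the cap). The vegetal signal of rab11a.S lay under the filter. Its relative rab11b.1.S did not follow, at 829, 950, 762 and 891.

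The Rabs that define the main compartments differed less. Rab5c.L, on early endosomes, read 822 in the cap, 825 dorsally, 934 ventrally and 898 vegetally. The rab5a.L probe sets disagreed by 1.1 on the log2 scale: one had 1506 in the cap and 1261 vegetally, the other 743 in the cap and 1331 vegetally, so no direction can be given for that gene. Rab7a.L, on late endosomes, had 869 in the cap, 860 dorsally, 1187 ventrally and 1495 vegetally, 1.72-fold higher vegetally than in the cap and short of the rule. The S copy of rab7a stayed under the filter with at most 66.9. Rab1a.L, which acts between endoplasmic reticulum and Golgi, leaned to the cap on all 4 of its probe sets, by 1.32 to 1.77-fold. Its brightest probe set had 4714 in the cap, 3670 dorsally, 3638 ventrally and 3468 vegetally. Rab10.L, a Rab of Golgi and endosome traffic chosen after its values were seen, was the most even of the Rab probe sets compared, at 1794, 1846, 1848 and 1837.

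**Figure D3:**
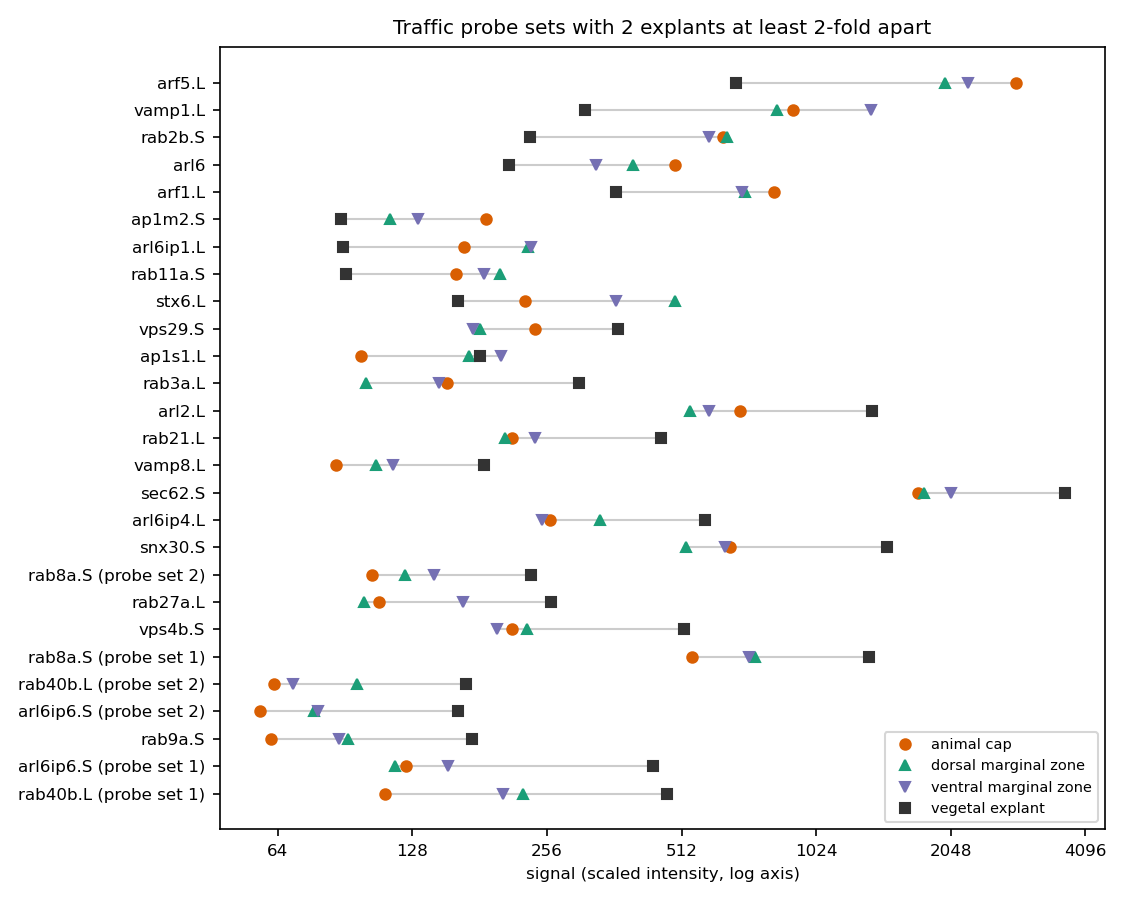
Signal in each explant (scaled intensity, log axis) of the 27 traffic probe sets with any pair of explants 2-fold or more apart, ordered by the animal cap minus vegetal explant difference. Circles are the animal cap, upward triangles the dorsal and downward triangles the ventral marginal zone, and squares the vegetal explant; the squares sit at one end of nearly every line, at the right for the probe sets in the lower part and at the left for those at the top. Genes with 2 probe sets in the plot have them numbered.

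Of 16 Arf and Arl probe sets compared, 3 were past 2-fold in the cap and 0 vegetally (median 0.23). The shares of all probe sets were 9.14% and 11.7%. By gene the direction was mixed: arf4.S, arf5.L and arl10.L, all higher in the cap, each entered with 2 probe sets. The largest difference was on 1 probe set of arf5.L, a class II Arf of the early secretory pathway: 2864 in the cap, 1989 dorsally, 2242 ventrally and 676 vegetally, 4.24-fold higher in the cap. Another arf5.L probe set had 2696, 2458, 2465 and 1750 (1.54-fold), so the gene's probe sets agreed in direction but differed by 1.46 on the log2 scale. A further, dim one stayed below the filter. Arf1.L, which recruits COPI and AP-1 to the Golgi, had 825 in the cap, 710 dorsally, 700 ventrally and 366 vegetally (2.25-fold higher in the cap). Arl6, the GTPase that brings the BBSome to membranes at the cilium, had 494, 399, 329 and 210 (2.35-fold). In these genes the vegetal explant was the low one.

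Arl1.L, which recruits golgins to the trans-Golgi, fell just short with 3176 in the cap, 2302 dorsally, 2647 ventrally and 1730 vegetally (1.84-fold). Arl2.L, a regulator of tubulin folding rather than of carriers, went the other way, at 693, 534, 591 and 1368. Its cap signal was 0.506 of the vegetal one, just under the rule, while the dorsal marginal zone was lowest and 1.36 below the vegetal explant on the log2 scale. Among the remaining Arfs, arf4.L was flat at 12250, 12466, 11766 and 12849, and the arf4.S probe sets were 1.76 and 1.47-fold higher in the cap. Arf6.S, the Arf of the plasma membrane and endocytic recycling, had 943 in the cap, 1011 dorsally, 1216 ventrally and 1202 vegetally.

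The coats of the early secretory pathway stayed within 2-fold across the 4 explants. None of 11 COPII and Sec22 probe sets, none of 10 COPI probe sets and none of 11 probe sets for p24 proteins (TMED, cargo receptors of both coats) had any pair of explants 2-fold apart. Of all probe sets 27.4% had such a pair. These groups are small and rest on single arrays. Between the highest and the lowest explant the largest difference was 1.81-fold in the COPII group (sec22a.L), 1.64-fold in the COPI group (copa.L) and 1.8-fold among the TMED genes (tmed10l.L). Sec13.S, part of the outer COPII cage, read 994 in the cap, 1191 dorsally, 1204 ventrally and 1146 vegetally. The inner coat gene sec23b.L read 782, 673, 837 and 693. In both genes the 4 explants lay well within 2-fold of each other.

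Copa.L, the alpha subunit of COPI, had 665 in the cap, 548 dorsally, 528 ventrally and 404 vegetally. Copb2.S had 257, 348, 285 and 272 and copb1.L 174, 141, 165 and 134. The 3 probe sets of the gamma subunit gene copg1.L differed between cap and vegetal explant by -0.46, 0.10 and 0.03 on the log2 scale. The brightest tmed2.L probe set, marked as open to cross-hybridisation, had 3176 in the cap, 3088 dorsally, 2924 ventrally and 2827 vegetally. Tmed10l.L was the most vegetal of the p24 genes, at 372, 421, 465 and 670.

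Among clathrin and its adaptors, 1 of 26 probe sets was past 2-fold in the cap and 0 vegetally (median 0.06), and 2 of the 27 that passed the filter, ap1m2.S and ap1s1.L, had any pair of explants 2-fold apart. The shares of all probe sets were 9.14% in the cap, 11.7% vegetally and 27.4% for any pair. The one higher in the cap was ap1m2.S, the medium subunit of the AP-1 form found in epithelia in mammals, where it sorts proteins to the basolateral surface. It had 187 in the cap, 114 dorsally, 132 ventrally and 88.7 vegetally (2.11-fold higher in the cap), all but the cap under the filter. The ubiquitous AP-1 medium subunit gene ap1m1.S showed no such order, with 857, 749, 670 and 787 on one probe set and 572, 643, 651 and 552 on the other. The small subunit gene ap1s1.L was lowest in the cap, at 98.3, 171, 202 and 181.

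The clathrin heavy chain gene cltc.L had 3 probe sets, of which the brightest read 4422 in the cap, 5195 dorsally, 4289 ventrally and 3552 vegetally. The cap was 1.09 to 1.34-fold above the vegetal explant on the 3. Clta.S, a light chain, was flat at 3254, 3400, 3390 and 3322. Of the AP-2 genes for uptake at the cell surface, ap2b1.L had 762, 641, 811 and 692, and ap2m1.L had 2325, 2019, 1921 and 1504 (1.55-fold higher in the cap than vegetally). The copy ap2m1.S had 486 in the cap and 559 vegetally.

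Sorting nexins and retromer leaned to the vegetal side (median -0.305 over 23 probe sets), but only 1 passed 2-fold there, where the share of all probe sets was 11.7%. That was snx30.S, a sorting nexin, with 656 in the cap, 524 dorsally, 640 ventrally and 1474 vegetally, 2.25-fold higher vegetally than in the cap and more than 2-fold above every other explant. The array medians themselves differed by -0.21 (cap minus vegetal explant, log2), so the size of the group's lean depends on the scaling. With each array centred on its median, snx30.S gave -0.96, short of the rule. Snx10.L (410, 520, 471 and 797) and snx1.L (296, 373, 345 and 555), named after their values were seen, were also highest vegetally. In both the cap was lowest, but the difference stayed below the rule. Others of the group were higher in the cap than vegetally. Among them were snx31.S (319 in the cap and 213 vegetally), snx12.L (1179 and 841) and snx33.S (292 and 209), all below the rule. The retromer core gene vps35.S was even, at 4795, 4338, 4443 and 4143. The probe sets of the retromer gene vps29.S, named after their values were seen, did not agree: one was highest vegetally (241, 181, 175 and 368) and the other ventrally (472, 326, 581 and 392).

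In the ESCRT group, which sorts ubiquitinated receptors into the lysosomal route, 1 of 7 probe sets was past 2-fold, vegetally (median 0.34), against 11.7% of all probe sets. The 1 probe set belonged to vps4b.S, the ATPase that disassembles the complex: 214 in the cap, 231 dorsally, 198 ventrally and 519 vegetally (2.42-fold higher vegetally). The brighter probe set of the same gene did not show this, with 1448, 1269, 1408 and 1568. The ESCRT-I gene vps28.S leaned to the cap, with 839 in the cap and 489 vegetally on its brighter probe set. None of the 6 probe sets for the other Vps genes was past 2-fold between the poles, against 20.9% of all probe sets. They include vps11.S and vps18.S of the lysosomal tethering complexes, and also vps72, which encodes a chromatin protein despite its name. The only LAMP gene, the lysosomal membrane gene lamp1.L, had 864, 791, 788 and 962.

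Among the SNAREs, 1 of 13 probe sets was past 2-fold in the cap and 1 in the vegetal explant, where the shares of all probe sets were 9.14% and 11.7%. On 1 probe set of vamp1.L, a synaptobrevin, the ventral marginal zone was highest: 910 in the cap, 837 dorsally, 1356 ventrally and 312 vegetally (2.91-fold higher in the cap than vegetally). The other vamp1.L probe set had 515, 612, 507 and 459, a disagreement of 1.38 on the log2 scale. Vamp8.L, a SNARE of late endosomes and secretory granules, had 86.3 in the cap, 106 dorsally, 116 ventrally and 185 vegetally (2.14-fold higher vegetally).

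Stx6.L, a syntaxin of the trans-Golgi and endosomes, had the largest excess of the marginal zones over the poles among the traffic probe sets compared (1.14 on the log2 scale on its dimmer probe set). Its probe sets had 496 dorsally and 365 ventrally against 229 in the cap and 162 vegetally, and 950 dorsally and 826 ventrally against 615 in the cap and 485 vegetally. Both probe sets placed the marginal zones above both poles, but on neither did both marginal zones reach 2-fold over the cap. The Golgi syntaxin gene stx5.L had 400 in the cap, 378 dorsally, 420 ventrally and 558 vegetally.

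The family prefixes also took genes that are not themselves carrier components. Some of these, such as rab11fip4l.L and rab3ip, are effectors or regulators of Rab proteins and so still belong to traffic. The group held 22 probe sets. Of 19 compared, 4 were past 2-fold vegetally and 0 in the cap, where the shares of all probe sets were 11.7% and 9.14%. Both probe sets of arl6ip6.S were among them, with 124, 117, 154 and 441 (3.55-fold higher vegetally than in the cap) and 58.4, 77.1, 78.8 and 162 (2.77-fold) in the cap, dorsally, ventrally and vegetally. On both the cap lay under the filter, so that they entered only through the vegetal explant. Sec62.S, a partner of the protein translocation channel of the endoplasmic reticulum, had 1727 in the cap, 1788 dorsally, 2051 ventrally and 3689 vegetally (2.14-fold). The channel subunit gene sec61a1.S went the opposite way below the rule, at 893, 890, 1015 and 522. Arl6ip4.L was 2.23-fold higher vegetally (260 in the cap and 579 vegetally). Arl6ip1.L, which shapes the endoplasmic reticulum, was low in the vegetal explant alone, at 167, 232, 236 and 89.5. Its vegetal signal lay under the filter. With these genes and vps72 left out, 16 of 152 probe sets (10.5%) were 2-fold apart between the poles.

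Along the dorsal-ventral axis the largest differences stayed under 2-fold. On the ventral side vps72.L had 226 dorsally and 396 ventrally, and the clathrin light chain gene clta.L had 134 dorsally and 223 ventrally. Their S copies showed no such difference: vps72.S read 374 dorsally and 361 ventrally on its brighter probe set, and clta.S 3400 and 3390. The clta.S probe set is marked as open to cross-hybridisation. Rab27a.L had 99.8 dorsally and 166 ventrally, and cltb.S, another light chain gene, 189 dorsally and 297 ventrally. Arl14ep.L, which is not a carrier component, had 123 dorsally and 208 ventrally, and the retromer gene vps26b.S 117 and 183. In rab27a.L, clta.L, arl14ep.L and vps26b.S the dorsal signal lay under the filter. These entered this comparison only through the ventral marginal zone, where they were high.

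On the dorsal side sec22a.L, a gene of the Sec22 family, led the genes with 1155 dorsally and 727 ventrally (1.59-fold). Stx10.L had 194 dorsally and 129 ventrally, and ap2s1.S, the small subunit of AP-2, 154 and 113. In both the ventral signal lay under the filter, so that they entered only through the dorsal marginal zone. Arl6ip4.L had 337 dorsally and 250 ventrally, and rab13.L 443 and 352. The largest single probe set difference, on a probe set marked as open to cross-hybridisation, was that of ap3b1.L, a subunit of the lysosomal adaptor AP-3, with 201 dorsally and 104 ventrally. The ventral signal of that probe set also lay under the filter. The other ap3b1.L probe sets had 168 dorsally and 163 ventrally, and 200 and 262, so that the gene had no common direction.

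Probe sets of the same gene gave a measure of error inside the arrays. For each gene with several probe sets, the first 2 by name were set against each other. Over 28 traffic genes the root mean square of their difference was 0.60 on the log2 scale for the cap against the vegetal explant. For dorsal against ventral it was 0.44 over 24 genes. Some of these pairs, such as those of ap1m1.S and ap3d1.S, are designs on the same target, and whether they share probes was not tested. The corresponding values over all genes were 0.76 (675 genes) and 0.42 (631 genes). On this scale a 2-fold difference is 1, so a single probe set just past 2-fold between the poles lies within the range of such disagreements. In 6 pairs of traffic probe sets with 1 member past 2-fold between the poles, the other had the same sign in 6, and in 3 it was past 2-fold as well. Over all genes there were 444 such pairs, of which 384 shared the sign (86.5%) and 240 were both past 2-fold in one direction (54.1%). The 3 traffic pairs were rab40b.L, rab8a.S and arl6ip6.S. The cap lay under the filter on both probe sets of rab40b.L and arl6ip6.S and on the dimmer one of rab8a.S. These entered only through the vegetal explant, where they were high, so that their agreement is no independent check.

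The L and S copies of a gene could be compared for 15 pairs. No copy in them was past 2-fold between the poles, and the copies lay 0.29 apart on the log2 scale in the median and 0.84 at most (snx12). In 8 of 15 pairs the copies had the same sign. Snx12.L was higher in the cap (1179 in the cap and 841 vegetally), while snx12.S was lower in the cap, with 156 in the cap and 199 vegetally. Probe sets of near-identical copies can bind both transcripts, and 10 of the 219 traffic probe sets carry the platform's mark for probes that may cross-hybridise. Another 2 carry its mark for probes shared by several transcripts.

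**Figure D4:**
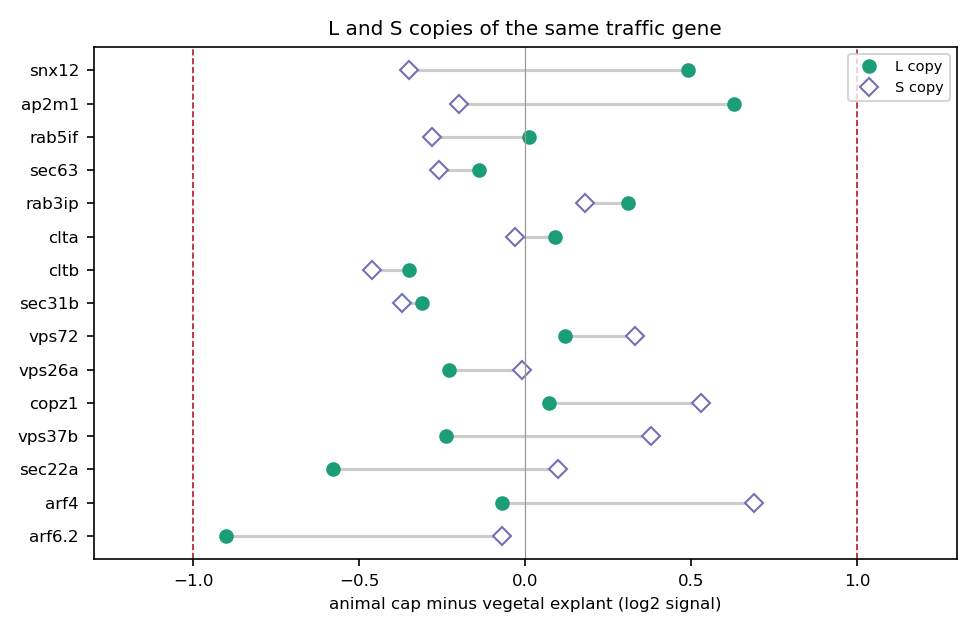
Animal cap minus vegetal explant difference (log2 signal) for the 15 traffic genes measured on both L (filled circles) and S copies (open diamonds); dashed lines mark 2-fold. Every copy lies within the dashed lines, and snx12, ap2m1 and arf6.2 have the copies farthest apart.

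Other genes of the pathway, from a list of 213 names that the family prefixes do not take, were measured alongside. The array held 116 genes of this list with 148 probe sets, and 95 probe sets entered the cap against vegetal comparison. Of these, 2 were 2-fold or more higher in the cap and 11 in the vegetal explant, where the shares of all probe sets were 9.14% and 11.7%. The vegetal count was thus near the array's share and the cap count below it. Together they made 13.7%, against 20.9% of all probe sets, and the median difference was 0.02. In the dorsal-ventral comparison 0 of 84 were 2-fold apart, against 2.56% of all. Trappc4.S and trappc13.L, subunits of the TRAPP tethering complexes, led vegetally with 112 in the cap and 459 vegetally, and 59.7 and 235. Both were under the filter in the cap and entered only through the vegetal explant. The same held for bet1.L, blzf1.L, flot1.S, necap1.L, the dimmer probe set of ccdc22.S and the dimmest of m6pr.S. In the vegetal count only epn2.L, fcho1.L and rabif.S reached the filter in the cap. The brighter m6pr.S probe sets were not 2-fold apart, and the copies blzf1.S and flot1.L leaned to the cap below the rule. The brighter ccdc22.S probe set and bet1.S leaned vegetally below the rule. The TRAPP genes had no common direction. Of the trappc11.S probe sets, the brighter had 1902 in the cap and 981 vegetally, and the other 135 and 221. Epn2.L, an epsin of clathrin-coated pits, was low in the cap alone, with 457 in the cap, 1556 dorsally, 1144 ventrally and 1233 vegetally. The 2 genes higher in the cap were preb.L, the exchange factor that starts COPII coats (248 in the cap, 109 vegetally), and exoc4.L, an exocyst subunit (561 and 269). Preb.L was under the filter vegetally and entered only through the cap.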

How the data were processed

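RNA of 4 explants was measured on 4 arrays, 1 per explant, assigned by title. Total RNA (DNase-treated, column-purified) was amplified from 100 ng and labelled with biotin, per the labels' protocols. The deposited values are linear intensity signals of 15611 probe sets. The authors' summarisation and scaling methods are not stated; the mean without the lowest and highest 2% was 500.1 on each array. The number of arrays limits the precision.

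The 120 control probe sets were left out. Names came from the platform annotation table (9304 probe sets with 1 symbol, 195 with several, 5992 with none or not listed). Of the traffic probe sets 217 matched a RefSeq gene of Xenopus_laevis_v10.1 and 2 did not, and no symbol needed an update. The array's build is not given in the sources used here, so no coordinates are printed. Signals were raised to the 20th percentile (24.7) and log2 transformed; the filter was 147.1 and the rule of size 2-fold. A fold is a ratio of single arrays. The gene members, role groups and lists were chosen with earlier results of these data known. Named genes were, per role group, those with any pair of explants 2-fold apart (up to 8), the 6 largest dorsal-ventral differences each way, genes nearest 2-fold, copies or probe sets 1 or more apart, and textbook members. Genes outside that rule (rab10.L, rab11b.1.S, copg1.L, tmed10l.L, snx1.L, snx10.L, snx12, snx31.S, snx33.S, vps29.S, sec61a1.S, ap3b1.L and the partner copies) were chosen after their values were seen. Alternatives were 3 other scalings, 2 other treatments of low signals, 2 other filters, a 1.5-fold rule and genes in place of probe sets. Another 2 were chosen after seeing the data. These left out vps72 and the genes that are not carrier components, or took only probe sets with 1 symbol as the background. The counting was tested on simulated data. Work was done in Python 3.11.15 with numpy 2.4.6 and pandas 2.3.3.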

Additional observations from a re-analysis of the deposited data

How the results depend on the processing

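No paired analysis was possible because each explant has 1 array, and for the same reason no replicate could be left out. The share of traffic probe sets past the rule of size lay below that of all probe sets in all 11 alternatives, 2 of them chosen after seeing the data, for the cap against the vegetal explant, for the dorsal against the ventral marginal zone and for any pair of explants. Among the scalings, only centring turned the balance of the poles for the traffic probe sets. With each array centred on its median, 11 traffic probe sets were higher in the cap and 8 in the vegetal explant. The counts were 6 and 14 as deposited, 8 and 13 after quantile normalization, and 6 and 13 scaled to the hybridisation controls. Over all probe sets the balance also turned from the vegetal explant to the cap with centring. It was nearly even after quantile normalization and when scaled to the hybridisation controls. Under that centring rab21.L, snx30.S, sec62.S, vamp8.L and arl6ip4.L dropped below 2-fold (-0.90, -0.96, -0.89, -0.89 and -0.95), and arl1.L, rab11a.S, vamp1.L and arl6ip1.L passed it (1.08, 1.02, 1.06 and 1.11), since the cap median lies 0.21 (log2) under the vegetal one. Centring also gave, of 176 traffic probe sets, 2 above all other explants and 6 below them in the vegetal explant. Over all 8810 probe sets these counts were 404 and 599. Quantile normalization gave 5 of 176 below (545 of 8812 over all). Scaled to the 18 hybridisation control probe sets, 2 of 172 were higher ventrally than dorsally (185 of 8276 over all). In that scaling 2 of 178 stood above all others vegetally (391 of 8836 over all). Without the filter 1 of 219 was higher ventrally (262 of 15491 over all). The 1.5-fold rule gave 16 in the cap and 28 in the vegetal explant, 3 dorsally and 10 ventrally (7.88% of 165 together, against 8.15% of all), 1 above and 1 below both poles in the marginal zones, 20 above and 8 below all others vegetally, 2 below all others in the cap and 72 with any pair apart. Counted by gene, 2 of 136 stood above all others vegetally (260 of 4989 over all genes). Counted by probe set without vps72 and the genes that are not carrier components, 3 of 156 did (532 of 8851 over all). That alternative was chosen after seeing the data. No named gene past 2-fold changed sign in these alternatives. This is no independent check, since centring moved the poles by only 0.21 on the log2 scale, where a 2-fold difference is 1. The brighter arf5.L probe set alone gave 0.62 in place of 1.35 for the gene. Signal over background limits the probe sets whose lower pole lay under the filter. Among them are those of rab9a.S, rab40b.L, rab27a.L, arl6ip6.S, vamp8.L and ap1m2.S, and the dimmer one of rab8a.S.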
